A study of Homo sapiens with 9 samples.

Results

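The 39 genes described here are NRF2 itself, its inhibitor KEAP1, and antioxidant, detoxifying and NADPH-making genes that NRF2 is known to drive or that work beside them. They were taken by gene symbol from the 60609 genes counted by RNA sequencing in MCF-10A cells, and all 39 were found. MCF-10A is an immortalised line of human breast epithelium that does not form tumours. The 3 genotypes, with 3 libraries each, were knock-in cells carrying E545K in PIK3CA, knock-in cells carrying H1047R in PIK3CA, and the parental line (WT). PIK3CA encodes p110-alpha, a catalytic subunit of PI 3-kinase, and E545K lies in its helical domain and H1047R in its kinase domain. Both knock-in lines were maintained without epidermal growth factor (EGF, 0 ng/ml), whereas WT was maintained with 20 ng/ml EGF. Horse serum (5%), insulin (at 10 µg/ml), cholera toxin (at 100 ng/ml) and hydrocortisone (at 0.5 µg/ml) were common to all lines. For the final 24 h all cells were held in 1% charcoal-stripped serum and 0.2 ng/ml EGF, with the other additives kept. Genotype and EGF history therefore cannot be told apart in either comparison with WT, but both knock-in lines shared the same history. The number of clones behind each line is not given in the sources used here.

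NRF2, encoded by NFE2L2, is a transcription factor that pairs with small MAF proteins on antioxidant response elements in DNA. KEAP1 holds it in the cytoplasm and hands it to a ubiquitin ligase for destruction, until oxidants or electrophiles modify KEAP1 and NRF2 accumulates. Its known targets make and recycle glutathione and thioredoxin, reduce quinones and carbonyls, store iron, conjugate and export foreign compounds, and regenerate NADPH through the pentose phosphate pathway and malic enzyme. NRF2 is regulated mainly by protein turnover, which RNA levels do not show.

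Levels are given as CPM (a gene's counts relative to its library size, which is scaled by TMM), and differences come from edgeR's quasi-likelihood test adjusted by Benjamini-Hochberg over all 26412 genes that entered it. A gene is said to rise or fall where its adjusted p is under 0.05. The value after ± beside a log2 fold change is its approximate standard error, and beside a CPM value its SD over 3 libraries. Libraries summed to 95533991 to 134245702 counts in E545K, 377093507 to 605972919 in H1047R and 95091894 to 136132315 in WT. Basal epithelial markers summed to 30500 to 31100 CPM in E545K, 35000 to 39700 CPM in H1047R and 34600 to 35300 CPM in WT (10 genes). The 8 luminal markers summed to 92.7 to 93.8 CPM in E545K, 84.6 to 96.7 CPM in H1047R and 79.6 to 104 CPM in WT. These sums hid opposite moves against WT. GATA3 was 2.1-fold higher in H1047R and 1.2-fold lower in E545K, and FOXA1 was 2.48-fold higher in E545K. ESR1 was 1.8-fold lower in E545K and 1.31-fold lower in H1047R. The 7 fibroblast markers summed to 67.2 to 70.1 CPM in E545K, 69.6 to 85.9 CPM in H1047R and 93.8 to 97.3 CPM in WT, nearly all of it COL1A1 and DCN. DCN fell, averaging 7.76 ± 0.612 CPM in E545K, 13.1 ± 1.80 CPM in H1047R and 47.0 ± 1.69 CPM in WT. COL1A1 rose in both knock-in lines, averaging 59.5 ± 1.47 CPM in E545K, 66.6 ± 7.45 CPM in H1047R and 47.4 ± 0.523 CPM in WT. The 6 immune markers summed to 11.9 to 12.6 CPM in E545K, 6.97 to 8.60 CPM in H1047R and 16.0 to 16.6 CPM in WT, nearly all of it CD68 and CD14, while PTPRC, which marks all leukocytes, did not pass 0.0892 CPM in any library. Endothelial, adipocyte and hepatocyte markers did not pass sums of 1.10, 0.638 and 0.244 CPM. What part the expressed markers of other cell types have in the results was not tested. The H1047R libraries stood in a separate count table, so table and genotype cannot be told apart for H1047R. They also differed in makeup, with 77.6 to 78.1% of counts in protein-coding genes, against 85.2 to 85.8% in E545K and 85.9 to 86% in WT. WT replicate 1 held 10.0 CPM of the luminal gene TFF1, against 0.507 and 0.742 CPM in the other WT libraries. Whether replicates were separate cultures is not stated, and the spread behind each p-value may be purely technical. In bulk RNA, fewer expressing cells cannot be told apart from less RNA per cell. Gene counts hold no base calls, so the labelled PIK3CA changes were not checked here.

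In E545K cells 7 members rose and 18 fell, and in H1047R cells 8 rose and 26 fell, among the 38 members that passed the low-count filter. The largest rises were those of the export pumps ABCC2 and ABCC3 in E545K and of ABCC2 and the reductase AKR1B10 in H1047R, and the largest falls in H1047R were those of PIR, AKR1C2, FTL and TKT. The median log2 fold change over the tested members was -0.094 in E545K and -0.42 in H1047R, against 0.0031 and 0.021 over all genes tested. Of all genes, 36.6% were called in E545K against WT (17.7% higher and 18.9% lower), beside 65.8% of the tested members (18.4% higher and 47.4% lower). Of all genes, 55.5% were called in H1047R against WT (27.4% higher and 28.1% lower), beside 89.5% of the tested members (21.1% higher and 68.4% lower). The members were mostly abundant, and abundant genes were called more often than all genes in both directions. Of the 10307 genes with a mean of at least 10 CPM, 24.1% rose and 31.5% fell in E545K, and 30.8% and 43.0% in H1047R. Of the 34 members at that level, 17.6% rose and 47.1% fell in E545K, and 23.5% and 70.6% in H1047R. Changes of at least 2-fold were fewer, with 2 rises and 0 falls among the members in E545K and 3 rises and 10 falls in H1047R. Over all genes, 7.10% passed that size in E545K (4.52% higher and 2.58% lower) and 17.4% in H1047R (10.0% higher and 7.39% lower). Both comparisons use the same WT libraries. The shares of all genes, and those of genes at 10 CPM or more for abundant members, also stand beside the counts by role and by list given below. No set test was run.

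**Figure D1:**
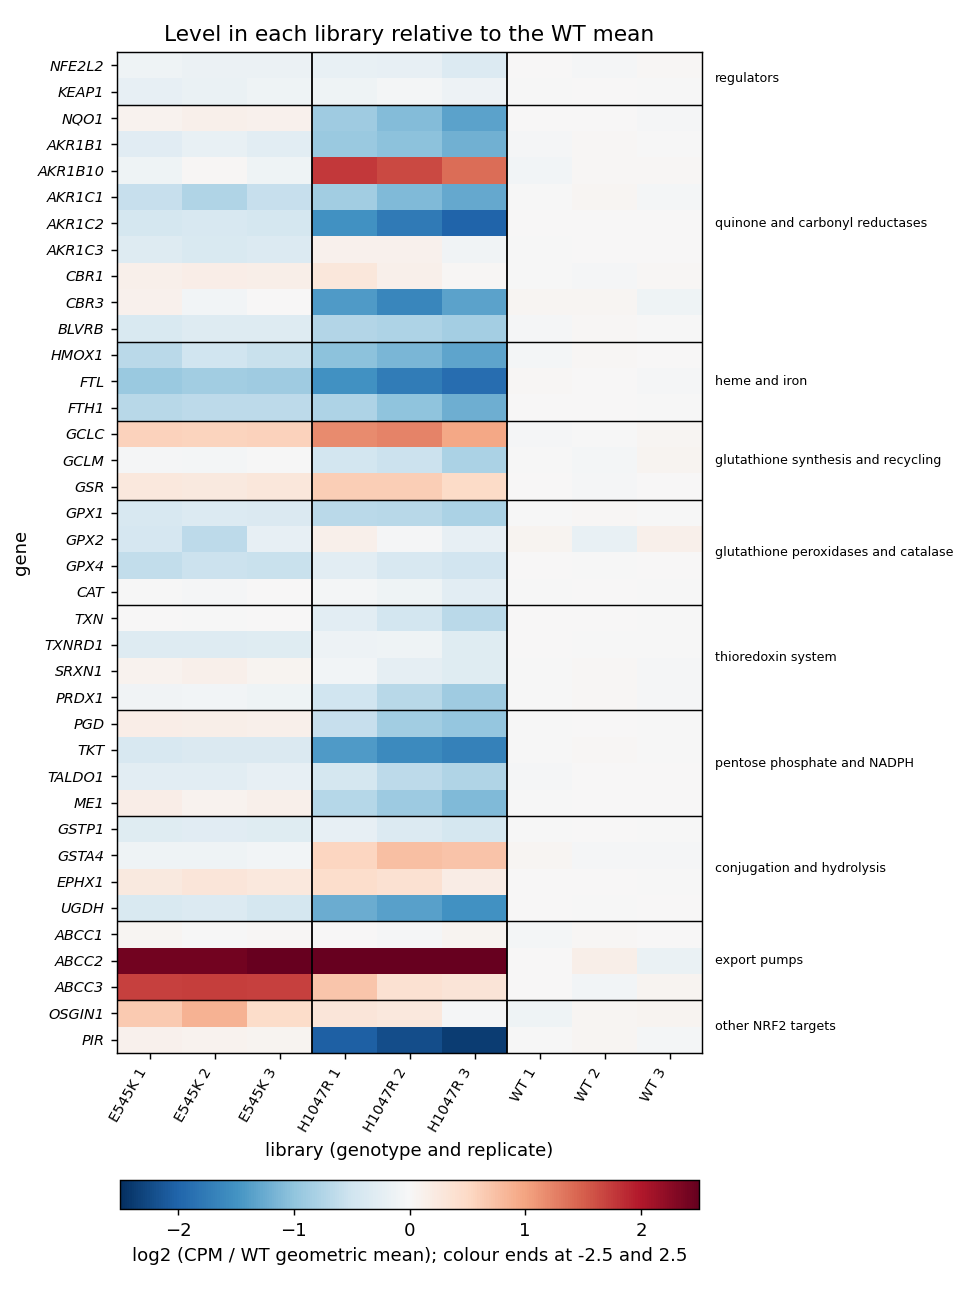
Level of each of the 38 tested members (rows, grouped by role) in each of the 9 libraries (columns), as the log2 ratio of its CPM to the geometric mean of the WT libraries, with colour ending at -2.5 and 2.5. The E545K columns show rises of ABCC2 and ABCC3 and falls of the ferritin genes, and the H1047R columns show wider falls, among them PIR, AKR1C2, FTL and TKT.

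The replicate libraries of E545K and of WT lay close together. The coefficient of variation of a member had a median of 1.7% in E545K, 9.55% in H1047R and 1.7% in WT. H1047R replicate 3 was the lowest of its group in 35 of the 38 tested members (92.1%, against 43.0% of all genes), and H1047R replicate 1 was the highest in 29 (76.3%, against 41.0%). Without H1047R replicate 3, 10 members rose and 24 fell in H1047R against WT. Without WT replicate 1, the counts were 7 and 24 in H1047R and 6 and 16 in E545K. Calls over all genes moved as well when single libraries were left out. They ranged from 7979 to 11251 genes in E545K against WT, beside 9663 with all libraries. In H1047R against WT they ranged from 13077 to 15791, beside 14651. With the model restricted to protein-coding genes, 7 members rose and 18 fell in E545K, and 9 rose and 24 fell in H1047R. The share of all genes called in that model is not set beside these member counts. What part the differing makeup of the H1047R libraries has in these counts was not tested further.

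The regulators themselves moved little. NFE2L2 had 122, 119 and 120 CPM in E545K, 117, 115 and 105 CPM in H1047R and 133, 129 and 135 CPM in WT. Its knock-in values lay below all WT values, by a log2 fold change of -0.14 ± 0.044 in E545K (edgeR adjusted p = 0.0267) and -0.24 ± 0.044 in H1047R (edgeR adjusted p = 3.36e-04). KEAP1 had 71.5, 72.6 and 75.8 CPM in E545K, 76.0, 78.9 and 74.7 CPM in H1047R and 81.0, 82.9 and 81.9 CPM in WT. These values did not overlap with WT either, and the log2 fold changes were -0.16 ± 0.040 in E545K (edgeR adjusted p = 5.01e-03) and -0.098 ± 0.039 in H1047R (edgeR adjusted p = 0.0458). Falls this small depended on the setting. That of NFE2L2 in E545K was lost under 6 of 18 alternatives and that of KEAP1 in H1047R under 13, and both sets included leaving out single libraries. The fall of KEAP1 in E545K was lost under 1, with library totals as the only scaling. Between H1047R and E545K neither gene passed the test, with log2 differences of -0.10 ± 0.044 for NFE2L2 and 0.062 ± 0.039 for KEAP1. Exons covering 21.9% of the NFE2L2 bases also belong to other genes, whose reads were counted for both.

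Among the 14 partners and other regulators of NRF2, 5 rose and 2 fell in E545K, and 5 rose and 4 fell in H1047R. Over all genes tested, 17.7% rose and 18.9% fell in E545K, and 27.4% and 28.1% in H1047R. BACH2, which encodes a repressor that binds the same DNA elements with small MAF proteins, averaged 1.41 ± 0.062 CPM in E545K, 1.71 ± 0.173 CPM in H1047R and 5.43 ± 0.501 CPM in WT (SD, n = 3 each). It was the only one of the 14 to change at least 2-fold against WT, with log2 fold changes of -1.94 ± 0.12 in E545K and -1.67 ± 0.11 in H1047R. NFE2L3, a relative of NRF2, averaged 11.2 ± 0.266 CPM in E545K, 4.87 ± 1.03 CPM in H1047R and 5.87 ± 0.743 CPM in WT. It rose in E545K by 0.92 ± 0.13 on the log2 scale and was not called in H1047R (log2 -0.27 ± 0.13), and the difference of H1047R minus E545K was -1.20 ± 0.12 (edgeR adjusted p = 1.15e-06). The small MAF genes MAFK and MAFF rose in E545K by 0.66 ± 0.040 and 0.57 ± 0.046 on the log2 scale, and MAFG fell by 0.37 ± 0.043. SQSTM1, whose product p62 binds KEAP1 and is itself a known NRF2 target, averaged 429 ± 2.38 CPM in E545K, 603 ± 21.5 CPM in H1047R and 436 ± 3.35 CPM in WT. It rose in H1047R, by a log2 fold change of 0.47 ± 0.037 (edgeR adjusted p = 4.87e-08), and other genes share 22.4% of its exon bases.

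Most of the 9 quinone and carbonyl reductases fell in H1047R, where 6 fell and 2 rose, while 5 fell and 1 rose in E545K. NQO1, which reduces quinones to hydroquinones and is a standard readout of NRF2, had 355, 364 and 362 CPM in E545K, 182, 159 and 133 CPM in H1047R and 339, 336 and 330 CPM in WT. All H1047R values lay below every other library, and the fall was 2.12-fold (log2 -1.08 ± 0.079, edgeR adjusted p = 1.79e-08). Another gene shares 19.4% of the NQO1 exon bases, and reads there were counted for both. In E545K the libraries stood slightly above WT without passing the test (log2 0.11 ± 0.078, edgeR adjusted p = 0.328). NQO1 was called higher in E545K under 3 of 18 alternatives, with an edgeR adjusted p of 3.11e-06 in a model of E545K and WT alone. CBR3, a carbonyl reductase, had 4.91, 4.34 and 4.59 CPM in E545K, 1.70, 1.47 and 1.79 CPM in H1047R and 4.73, 4.70 and 4.25 CPM in WT. The H1047R libraries alone stood apart, with a 2.77-fold fall, but CBR3 shares 71.1% of its exon bases with the antisense gene CBR3-AS1 and counting did not use strand. CBR1, a relative of CBR3, averaged 84.1 ± 0.619 CPM in E545K, 84.3 ± 7.30 CPM in H1047R and 76.0 ± 1.65 CPM in WT (SD, n = 3 each). Its rises, of 0.15 ± 0.053 on the log2 scale in both lines, were lost under 8 of 18 alternatives in E545K and 4 in H1047R, single libraries left out among them, and the H1047R libraries overlapped with WT.

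The aldo-keto reductases moved in different directions. AKR1B10, which reduces aldehydes and retinal, had 10.8, 11.9 and 10.9 CPM in E545K, 39.9, 36.6 and 30.8 CPM in H1047R and 11.2, 12 and 11.9 CPM in WT. Every H1047R library stood well above every other library, and the rise against WT was 3.06-fold (log2 1.61 ± 0.081, edgeR adjusted p = 2.86e-10). AKR1B1, aldose reductase, had 89.8, 95.7 and 90.7 CPM in E545K, 57.4, 53.7 and 47.4 CPM in H1047R and 107, 112 and 109 CPM in WT. It fell in both lines, by 0.25 ± 0.058 on the log2 scale in E545K and by 2.07-fold in H1047R. AKR1B15, a neighbour of AKR1B10 in the same family and not among the 39 genes, averaged 0.820 ± 0.0811 CPM in E545K, 5.94 ± 0.546 CPM in H1047R and 0.915 ± 0.0769 CPM in WT, a log2 fold change of 2.70 ± 0.12 in H1047R. AKR1B10 and AKR1B15 shared 0 of their 150-base windows of transcript sequence exactly.

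The AKR1C genes encode hydroxysteroid dehydrogenases. AKR1C2 had 114, 116 and 113 CPM in E545K, 53.8, 45.1 and 38.4 CPM in H1047R and 154 CPM in each of the 3 WT libraries. The 3 genotypes did not overlap, and AKR1C2 fell 1.35-fold in E545K and 3.37-fold in H1047R (edgeR adjusted p = 7.43e-04 and 1.83e-10). AKR1C1 had 16.2, 14.4 and 16.3 CPM in E545K, 13.3, 11.3 and 9.90 CPM in H1047R and 24, 25 and 23.5 CPM in WT. It also fell in both lines, 1.55-fold and 2.11-fold. AKR1C1 and AKR1C2 shared 506 windows of 150 bases, which is 7.39% of the AKR1C1 windows and 12.7% of those of AKR1C2, so reads of the 2 genes may be split or lost there. AKR1C3 went another way, with 50.4 ± 1.15 CPM in E545K, 66.0 ± 5.07 CPM in H1047R and 64.2 ± 0.236 CPM in WT (SD, n = 3 each), a fall in E545K of 0.35 ± 0.051 on the log2 scale and no call in H1047R (log2 0.040 ± 0.050). BLVRB, a biliverdin and flavin reductase, fell in both, by 0.34 ± 0.041 on the log2 scale in E545K and 0.77 ± 0.041 in H1047R.

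All 3 heme and iron genes fell in both lines. FTH1, which encodes the ferritin heavy chain, had 2440, 2490 and 2520 CPM in E545K, 2300, 1960 and 1700 CPM in H1047R and 3950, 3950 and 3930 CPM in WT. FTL, the ferritin light chain gene, had 240, 249 and 246 CPM in E545K, 158, 136 and 122 CPM in H1047R and 463, 455 and 444 CPM in WT. Neither gene overlapped with WT in any knock-in library. FTL fell 1.85-fold in E545K and 3.27-fold in H1047R (edgeR adjusted p = 1.06e-07 and 3.30e-11), and FTH1 fell 1.59-fold and 1.98-fold (edgeR adjusted p = 4.75e-06 and 2.79e-08). Because FTL fell further than FTH1, the ratio of FTH1 to FTL counts per exon base was 4.41, 4.33 and 4.46 in E545K and 6.30, 6.27 and 6.08 in H1047R, against 3.71, 3.77 and 3.84 in WT. The ratio ranges of the 3 genotypes did not overlap. BEST1 exons cover 63.2% of the FTH1 exon bases, and reads there were counted for both genes. HMOX1, the inducible heme oxygenase that frees iron from heme, had 6.82, 7.76 and 7.41 CPM in E545K, 5.34, 4.98 and 4.36 CPM in H1047R and 10.6, 11.2 and 11 CPM in WT. It fell 1.49-fold in E545K and 2.23-fold in H1047R, and no library overlapped with another genotype.

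Of the 10 other heme and iron genes tested, 3 rose and 3 fell in E545K, and 1 rose and 7 fell in H1047R. The shares over all genes were 17.7% higher and 18.9% lower in E545K, and 27.4% and 28.1% in H1047R. STEAP3, an iron reductase of endosomes, averaged 164 ± 0.934 CPM in E545K, 177 ± 4.12 CPM in H1047R and 108 ± 1.54 CPM in WT, and rose by 0.60 ± 0.036 and 0.71 ± 0.036 on the log2 scale. SLC48A1, a heme transporter, averaged 25.8 ± 0.524 CPM in E545K, 14.1 ± 0.691 CPM in H1047R and 37.2 ± 1.55 CPM in WT, and fell by 0.53 ± 0.050 and 1.41 ± 0.050. TFRC, the transferrin receptor that brings iron into cells, averaged 299 ± 3.26 CPM in E545K, 187 ± 24.4 CPM in H1047R and 276 ± 5.03 CPM in WT. TFRC fell in H1047R, by 0.56 ± 0.068 on the log2 scale, and did not pass the test in E545K (log2 0.11 ± 0.068). BLVRA, biliverdin reductase A, rose in E545K by 0.40 ± 0.062 and fell in H1047R by 0.30 ± 0.062.

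**Figure D2:**
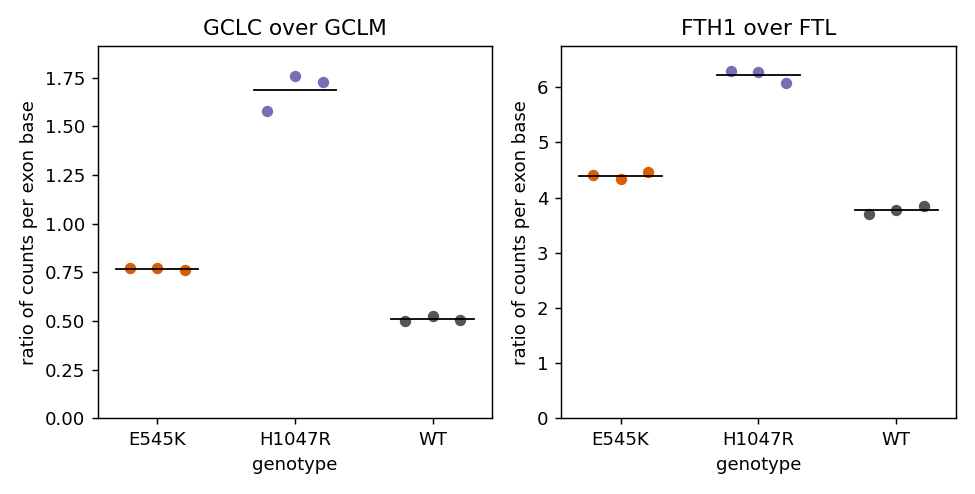
Ratio of counts per exon base of GCLC to GCLM (left) and of FTH1 to FTL (right) in each library, with dots for libraries and a line for the mean of 3. The E545K and H1047R ratios lie above WT in both panels, with H1047R highest, at 1.58 to 1.76 for GCLC over GCLM and 6.08 to 6.30 for FTH1 over FTL.

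The subunits of glutamate-cysteine ligase, which makes the first step of glutathione synthesis, moved apart. GCLC, the catalytic subunit, had 69.2, 68.4 and 69.1 CPM in E545K, 105, 110 and 90.8 CPM in H1047R and 45.2, 46.0 and 48.0 CPM in WT. It rose 1.49-fold in E545K and 2.19-fold in H1047R (edgeR adjusted p = 1.97e-06 and 3.80e-10), with no overlap between genotypes. GCLM, the modifier subunit that raises the activity of GCLC, had 56.5, 55.8 and 57.1 CPM in E545K, 41.9, 39.3 and 33.1 CPM in H1047R and 56.9, 55.3 and 60.1 CPM in WT. GCLM fell 1.51-fold in H1047R (edgeR adjusted p = 2.6e-06), and in E545K its libraries overlapped with WT (log2 -0.025 ± 0.068). The ratio of GCLC to GCLM counts per exon base was 0.772, 0.772 and 0.763 in E545K and 1.58, 1.76 and 1.73 in H1047R, against 0.500, 0.524 and 0.503 in WT. Other genes share 9.7% of the GCLC exon bases, so their reads there also enter its counts. GSR, which returns oxidised glutathione to its reduced form with NADPH, had 104, 103 and 105 CPM in E545K, 132, 133 and 121 CPM in H1047R and 86.8, 85.2 and 87.6 CPM in WT. Like GCLC it rose in both lines, 1.20-fold in E545K and 1.49-fold in H1047R.

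The 250 bases before the start sites of GCLC and GCLM are shown because these subunits of 1 enzyme changed differently. They come from RefSeq (GRCh38.p14) and are written 5′ to 3′ on the gene's own strand, with matches to the antioxidant response element core TGACNNNGC, on either strand, in capitals. GCLC lies on the minus strand of chromosome 6 and its stretch is chr6:53545102-53545351, while GCLM lies on the minus strand of chromosome 1 and its stretch is chr1:93909431-93909680.
GCLC: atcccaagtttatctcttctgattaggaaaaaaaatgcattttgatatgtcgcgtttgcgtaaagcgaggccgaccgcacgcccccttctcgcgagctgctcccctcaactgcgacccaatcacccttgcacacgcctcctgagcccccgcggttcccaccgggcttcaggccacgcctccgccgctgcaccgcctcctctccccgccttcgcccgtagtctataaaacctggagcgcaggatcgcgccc
GCLM: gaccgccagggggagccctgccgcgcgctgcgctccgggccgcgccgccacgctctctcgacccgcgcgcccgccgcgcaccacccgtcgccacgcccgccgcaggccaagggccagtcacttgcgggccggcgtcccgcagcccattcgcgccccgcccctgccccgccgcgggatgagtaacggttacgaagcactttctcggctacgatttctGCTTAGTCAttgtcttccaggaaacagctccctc
GCLM holds 1 match, on the opposite strand, starting at position -34 from the start site. No such letters stood in this GCLC stretch, which says nothing of elements farther away.

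The glutathione peroxidases and catalase, which remove peroxides, mostly fell, with 3 of 4 lower in each knock-in line and 0 higher. GPX1, the widely expressed cytosolic peroxidase, had 252, 261 and 259 CPM in E545K, 209, 205 and 192 CPM in H1047R and 329, 336 and 329 CPM in WT. The genotypes did not overlap, and the log2 fold changes were -0.36 ± 0.040 in E545K and -0.71 ± 0.040 in H1047R. GPX4, which reduces lipid hydroperoxides in membranes, averaged 150 ± 4.29 CPM in E545K, 171 ± 13.8 CPM in H1047R and 223 ± 1.75 CPM in WT (SD, n = 3 each). Its fall was larger in E545K (log2 -0.57 ± 0.051) than in H1047R (-0.38 ± 0.051), and H1047R stood above E545K by 0.20 ± 0.051 (edgeR adjusted p = 4.58e-03), a call lost when only library totals were used for scaling. GPX2, an epithelial peroxidase, averaged 1.78 ± 0.282 CPM in E545K, 2.32 ± 0.251 CPM in H1047R and 2.38 ± 0.254 CPM in WT. Its fall in E545K (log2 -0.42 ± 0.14) was lost under 5 of 17 alternatives, single libraries left out among them. CAT, catalase, averaged 60.2 ± 0.692 CPM in E545K, 55.2 ± 4.09 CPM in H1047R and 60.7 ± 0.573 CPM in WT, and its fall in H1047R (log2 -0.14 ± 0.049) was lost under 8 of 18 alternatives, again with single libraries left out among them.

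In the thioredoxin system, which passes electrons from NADPH to peroxiredoxins and other proteins, all 4 genes fell in H1047R and 1 in E545K. PRDX1, a peroxiredoxin, had 367, 370 and 360 CPM in E545K, 275, 243 and 210 CPM in H1047R and 390, 397 and 384 CPM in WT. It fell 1.61-fold in H1047R (edgeR adjusted p = 7.65e-07) and did not pass the test in E545K (log2 -0.095 ± 0.070), where its libraries nonetheless all lay below WT. TXN, thioredoxin, averaged 220 ± 1.59 CPM in E545K, 160 ± 22.6 CPM in H1047R and 220 ± 2.64 CPM in WT, a log2 fold change of -0.46 ± 0.072 in H1047R. TXNRD1, thioredoxin reductase, averaged 223 ± 1.45 CPM in E545K, 247 ± 19.0 CPM in H1047R and 279 ± 3.48 CPM in WT. Its log2 fold changes were -0.32 ± 0.049 in E545K and -0.18 ± 0.049 in H1047R, and the difference between the knock-in lines was lost under 6 of 18 alternatives. SRXN1, sulfiredoxin, which repairs overoxidised peroxiredoxins, fell in H1047R by 0.19 ± 0.054 on the log2 scale, but 85.0% of its exon bases belong to another gene too, as do 25.2% of those of PRDX1 (to MMACHC).

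Beyond these genes, the list of other thiol and superoxide defence genes had 21 members tested, of which 8 rose and 7 fell in E545K, and 8 rose and 10 fell in H1047R. Over all genes tested, 17.7% rose and 18.9% fell in E545K, and 27.4% and 28.1% in H1047R. The genes of the cystine importer, which feeds glutathione synthesis, moved differently. SLC7A11, its transporter subunit and a known NRF2 target, averaged 46.6 ± 1.39 CPM in E545K, 24 ± 1.89 CPM in H1047R and 19.9 ± 0.667 CPM in WT, with log2 rises of 1.23 ± 0.058 and 0.27 ± 0.057. SLC3A2, the chain that SLC7A11 shares with other amino acid transporters, averaged 610 ± 10.1 CPM in E545K, 300 ± 32.4 CPM in H1047R and 789 ± 7.45 CPM in WT. It fell by 0.37 ± 0.058 and 1.40 ± 0.059 on the log2 scale. TXNIP, an inhibitor of thioredoxin, averaged 124 ± 1.32 CPM in E545K, 411 ± 24.5 CPM in H1047R and 299 ± 3.01 CPM in WT. It moved in opposite directions in the knock-in lines, by -1.27 ± 0.044 in E545K and 0.46 ± 0.043 in H1047R, and the difference between H1047R and E545K was 1.73 ± 0.045 (edgeR adjusted p = 4.19e-13). MSRB1, which repairs oxidised methionine, fell by 0.84 ± 0.052 and 1.13 ± 0.051, and GLRX, glutaredoxin, rose by 0.36 ± 0.10 and 0.92 ± 0.096.

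All 4 pentose phosphate and NADPH members fell in H1047R, while 2 fell and 0 rose in E545K. TKT, transketolase of the non-oxidative branch, had 1690, 1730 and 1740 CPM in E545K, 830, 734 and 693 CPM in H1047R and 2220, 2260 and 2200 CPM in WT. The genotypes formed 3 separate ranges, and TKT fell 1.29-fold in E545K and 2.96-fold in H1047R (edgeR adjusted p = 5.78e-05 and 5.17e-12). ME1, the cytosolic malic enzyme, had 89.8, 85.7 and 88.1 CPM in E545K, 48.8, 42.9 and 37.6 CPM in H1047R and 79.9, 80.8 and 80.8 CPM in WT. It fell 1.87-fold in H1047R, and its E545K libraries lay just above WT without passing the test (log2 0.13 ± 0.069, edgeR adjusted p = 0.175), although 5 of 18 alternatives called it higher. PGD, which makes NADPH in the oxidative branch, averaged 188 ± 2.41 CPM in E545K, 98.1 ± 14.1 CPM in H1047R and 170 ± 0.940 CPM in WT, a 1.74-fold fall in H1047R. In E545K it did not pass the test (log2 0.14, edgeR adjusted p = 0.146), but 6 of 18 alternatives called it higher. TALDO1, transaldolase, averaged 109 ± 2.6 CPM in E545K, 84.0 ± 9.58 CPM in H1047R and 128 ± 2.01 CPM in WT, with log2 fold changes of -0.24 ± 0.062 and -0.61 ± 0.062.

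Other enzymes of the pathway and of NADPH supply had 12 members tested, of which 1 rose and 4 fell in E545K, and 1 rose and 9 fell in H1047R. The shares over all genes were 17.7% higher and 18.9% lower in E545K, and 27.4% and 28.1% in H1047R. The NADPH-making isocitrate dehydrogenase gene IDH2 fell by 0.35 ± 0.042 and 0.79 ± 0.041 on the log2 scale, and NNT, the mitochondrial transhydrogenase, by 0.37 ± 0.039 and 0.71 ± 0.039. PRPS1, which uses ribose phosphate for nucleotide synthesis, went the other way in H1047R, with 12.9 ± 0.681 CPM in E545K, 23.4 ± 2.88 CPM in H1047R and 13.0 ± 0.684 CPM in WT. ME2, the mitochondrial malic enzyme, rose in E545K by 0.29 ± 0.049 and fell in H1047R by 0.39 ± 0.048.

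Conjugation and hydrolysis genes split. GSTP1, a cytosolic glutathione transferase, had 1270, 1280 and 1270 CPM in E545K, 1350, 1230 and 1160 CPM in H1047R and 1560, 1580 and 1560 CPM in WT. The log2 fold changes were -0.29 ± 0.048 in E545K and -0.33 ± 0.048 in H1047R, and no knock-in library overlapped with WT. UGDH, which makes the sugar donor for glucuronidation, had 30.0, 30.6 and 28.6 CPM in E545K, 16.4, 15.1 and 13.7 CPM in H1047R and 39.2, 38.5 and 38.9 CPM in WT. Its ranges were separate in the 3 genotypes, and it fell 1.31-fold in E545K and 2.58-fold in H1047R (edgeR adjusted p = 1.01e-04 and 5.47e-11). GSTA4, a transferase for lipid aldehydes, averaged 15.4 ± 0.212 CPM in E545K, 26.1 ± 2.02 CPM in H1047R and 16.4 ± 0.582 CPM in WT, and rose 1.59-fold in H1047R. EPHX1, microsomal epoxide hydrolase, rose by 0.27 ± 0.053 on the log2 scale in E545K and 0.34 ± 0.053 in H1047R.

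GSTM3, a glutathione transferase of the mu class, was too low to test. It had 0.0140, 0.0555 and 0.0399 CPM in E545K, 0, 0.00693 and 0.00192 CPM in H1047R, and 0.193, 0.0634 and 0.0636 CPM in WT. With 0 counts, up to 3 remain possible, or 0.0210 to 0.0299 CPM in E545K, 0.00520 to 0.00863 CPM in H1047R and 0.0223 to 0.0318 CPM in WT, for counting error only. The highest value was in WT replicate 1, the library with 10.0 CPM of TFF1.

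Of the 3 export pumps, ABCC2 rose most of all members in both lines, ABCC3 rose too, and ABCC1 did not pass the test. ABCC2, a pump for glutathione and glucuronide conjugates, lies at 99782640 to 99852594 on the plus strand of chromosome 10 (hg38). It had 53.8, 53.9 and 57.5 CPM in E545K, 137, 139 and 134 CPM in H1047R and 10.3, 11.3 and 9.05 CPM in WT. The 3 genotypes were far apart, with rises of 5.39-fold in E545K and 13.4-fold in H1047R (edgeR adjusted p = 1.33e-12 and 5.29e-15). ABCC3, a related pump on chromosome 17, had 53.1, 54.1 and 52.9 CPM in E545K, 26.3, 21.2 and 20.2 CPM in H1047R and 16.4, 15.4 and 17 CPM in WT. It too was higher in every knock-in library, but in the other order, with rises of 3.28-fold in E545K and 1.38-fold in H1047R (edgeR adjusted p = 4.86e-10 and 1.30e-04). ABCC1, a pump with an overlapping set of substrates, had 67.9, 65.0 and 67.0 CPM in E545K, 66.4, 64.6 and 68.8 CPM in H1047R and 63.9, 67.5 and 66.1 CPM in WT. Its libraries overlapped across all genotypes, and its log2 fold changes were 0.018 ± 0.041 in E545K and 0.017 ± 0.040 in H1047R.

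The 250 bases before the start site of ABCC2 are shown because it rose most. They come from RefSeq (GRCh38.p14), chr10:99782390-99782639, and are written 5′ to 3′ on the plus strand, which is the gene's own.
ABCC2: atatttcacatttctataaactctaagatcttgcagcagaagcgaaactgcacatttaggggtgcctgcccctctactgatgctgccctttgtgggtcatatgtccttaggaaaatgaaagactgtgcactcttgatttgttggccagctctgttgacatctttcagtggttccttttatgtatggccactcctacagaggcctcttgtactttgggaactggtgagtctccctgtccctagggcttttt
The letters TGACNNNGC stood on neither strand of this stretch, which says nothing of elements elsewhere at the gene.

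**Figure D3:**
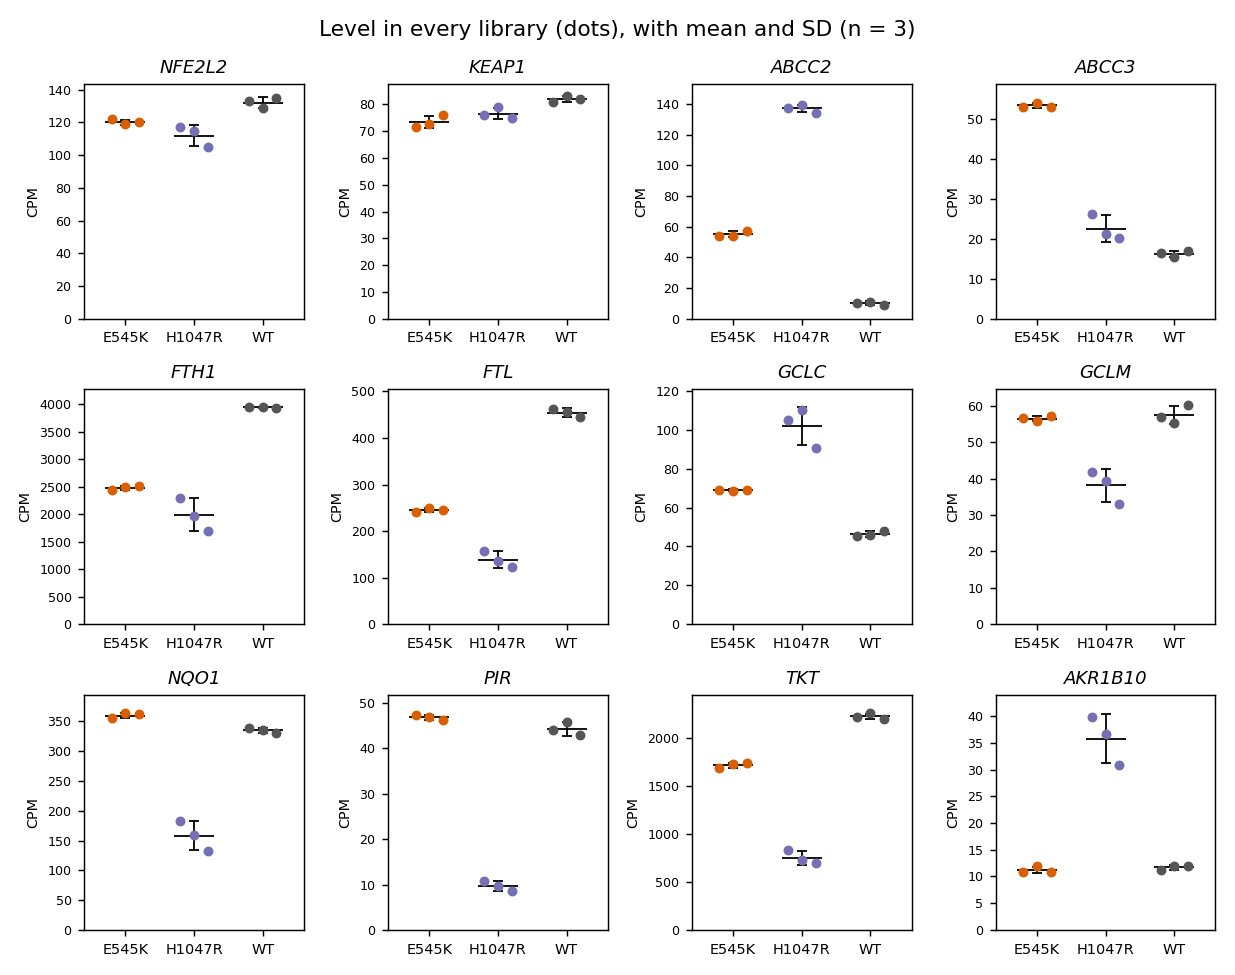
CPM of 12 members in each library (dots), with the mean and SD of 3 libraries, for E545K, H1047R and WT, on axes that start at 0. ABCC2 stands at 134 to 139 CPM in H1047R and 53.8 to 57.5 CPM in E545K, against 9.05 to 11.3 CPM in WT, while NFE2L2 and KEAP1 differ little between genotypes.

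Among the other conjugation, reductase and export genes, 26 were tested, of which 4 rose and 6 fell in E545K, and 7 rose and 13 fell in H1047R. Over all genes tested, 17.7% rose and 18.9% fell in E545K, and 27.4% and 28.1% in H1047R. All 4 rises in E545K and 6 of the 7 in H1047R were at least 2-fold, a size of rise reached by 4.52% and 10.0% of all genes. AKR1D1, a steroid reductase, rose at a very low level, with 0.227 ± 0.0597 CPM in E545K and 0.319 ± 0.129 CPM in H1047R, against 0.0562 ± 0.00632 CPM in WT. ABCG2, another drug export pump, averaged 4.48 ± 0.237 CPM in E545K, 4.53 ± 0.750 CPM in H1047R and 1.25 ± 0.0999 CPM in WT, with log2 rises of 1.85 ± 0.13 and 1.86 ± 0.13. UGT1A1 and UGT1A6, whose exons overlap other genes over 49.9% and 64.7% of their bases, so that reads are shared, rose by 1.37 ± 0.074 and 1.34 ± 0.072 in E545K and by 1.33 ± 0.073 and 1.33 ± 0.071 in H1047R. ABCC4, an export pump related to ABCC2, went the other way, with 28 ± 0.828 CPM in E545K, 12.7 ± 1.21 CPM in H1047R and 30.4 ± 0.891 CPM in WT. It fell in H1047R by 1.26 ± 0.062 on the log2 scale. ALDH3A1, an aldehyde dehydrogenase, fell by 0.68 ± 0.060 in E545K and 1.06 ± 0.060 in H1047R.

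The 2 remaining NRF2 targets differed between the knock-in lines. PIR, which encodes pirin, an iron-binding nuclear protein, had 47.4, 47.0 and 46.3 CPM in E545K, 10.7, 9.57 and 8.53 CPM in H1047R and 44.1, 45.9 and 42.9 CPM in WT. It fell 4.62-fold in H1047R (log2 -2.21 ± 0.067, edgeR adjusted p = 1.15e-12), and in E545K it did not pass the test (log2 0.083 ± 0.064). OSGIN1, an oxidative stress-induced growth inhibitor, had 3.72 ± 0.534 CPM in E545K, 2.66 ± 0.337 CPM in H1047R and 2.33 ± 0.154 CPM in WT (SD, n = 3 each). OSGIN1 rose 1.60-fold in E545K (edgeR adjusted p = 8.27e-04) and was not called in H1047R (log2 0.19 ± 0.13).

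**Figure D4:**
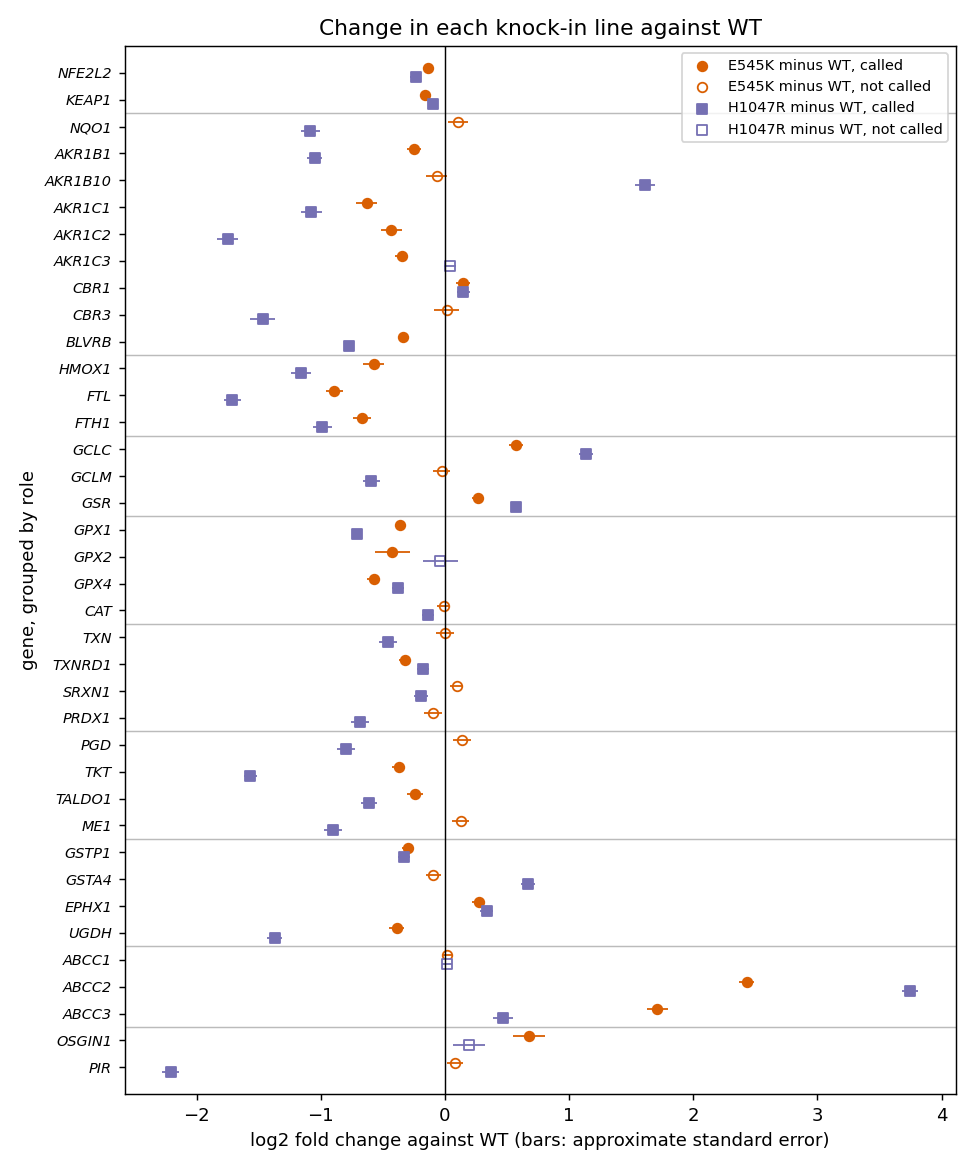
Log2 fold change of each tested member in E545K (circles) and H1047R (squares) against WT, with approximate standard errors as bars and filled symbols for genes that passed the test. H1047R points lie farther to the left than E545K points for most reductase, ferritin and pentose phosphate genes, and PIR lies farthest left, at -2.21 in H1047R, while ABCC2 lies far to the right in both lines, at 2.43 and 3.74.

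Set directly against each other, H1047R and E545K, which shared the same EGF history, differed in 32 of the 38 tested members, 9 higher and 23 lower in H1047R. Of all genes tested, 53.2% were called in this comparison (25.9% higher and 27.3% lower), beside 84.2% of the tested members (23.7% higher and 60.5% lower). The median log2 difference over the tested members was -0.36, against 0.016 over all genes. At 10 CPM or more, 23.5% of the 34 members were higher and 58.8% lower in H1047R, beside 30.8% and 40.2% of all genes at that level. Differences of at least 2-fold were found for 9 members, 2 higher and 7 lower in H1047R, where 15.0% of all genes passed that size (7.74% higher and 7.24% lower). AKR1B10 was 3.20-fold higher and ABCC2 2.48-fold higher in H1047R. PIR was 4.89-fold lower, CBR3 2.79-fold, AKR1C2 2.5-fold, ABCC3 2.37-fold, TKT 2.29-fold, NQO1 2.28-fold and ME1 2.04-fold lower in H1047R. For each of these 9 the H1047R and E545K libraries did not overlap, which their choice by size and adjusted p made likely beforehand. The share of all genes without such overlap was not counted.

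The remaining calls between the knock-in lines were smaller. FTL and FTH1 were lower in H1047R by 0.82 ± 0.069 and 0.32 ± 0.074 on the log2 scale, GCLM by 0.57 ± 0.068 and PRDX1 by 0.59 ± 0.070. GCLC and GSR were higher in H1047R by 0.56 ± 0.057 and 0.31 ± 0.043, and GSTA4 by 0.77 ± 0.058. GSTP1, EPHX1, CBR1 and ABCC1 did not pass the test, nor did NFE2L2 and KEAP1, with log2 differences of -0.035 ± 0.048, 0.066 ± 0.052, 0.0033 ± 0.053 and -0.0012 ± 0.040 for the first 4.

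Compared per exon length within each genotype, in TPM (counts per exon base, scaled to a common total in each library), the ferritin heavy chain led the members. FTH1 had 2380 ± 44.1 TPM in E545K, 1290 ± 108 TPM in H1047R and 3580 ± 5.01 TPM in WT (SD, n = 3 each). GSTP1 came next in each genotype, with 1290 ± 28.1 TPM in E545K, 849 ± 17.4 TPM in H1047R and 1490 ± 8.97 TPM in WT. OSGIN1 was the lowest of the tested members, at 1.29 ± 0.170 TPM in E545K, 0.622 ± 0.0436 TPM in H1047R and 0.763 ± 0.0515 TPM in WT. RNAs of the annotation's miscellaneous class (misc_RNA) took 27.9 to 29.2% of TPM in E545K, 39.1 to 40.1% in H1047R and 28.5 to 28.8% in WT, so TPM is used here to order genes within a genotype and not to compare genotypes.

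RefSeq promoter windows, from 250 bases before to 50 after a start site, were matched by symbol for 31 of the 39 genes, with 40 windows in all. HMOX1, PRDX1, AKR1B10, FTH1, GSR, ABCC1, ABCC3 and CBR3 had none in the table. The letters TGACNNNGC, a core of the antioxidant response element, were searched on both strands and stood in 12 of the 40 windows (30%), against 13.3% of all 35116 windows. They were found in 11 genes, namely CBR1, EPHX1, GCLM, GPX2, GSTA4, GSTP1, KEAP1, ME1, PGD, PIR and TXNRD1. The AP-1 site TGACTCA, which can overlap with that core, stood in 4 of the 40 windows (10%), those of GSTP1, ME1, OSGIN1 and PIR, against 4.95% of all windows. Matches in genes on which the results above turn are shown with 10 bases on either side, 5′ to 3′ on the gene's strand, with the core in capitals, and ME1 and KEAP1 hold 2 matches each.
GSTP1, chr11:67583736-67583764 (plus strand): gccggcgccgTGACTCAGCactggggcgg
ME1, chr6:83431170-83431198 (minus strand): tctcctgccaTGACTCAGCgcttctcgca
ME1, chr6:83431022-83431050 (minus strand): gctgcagtcaGCACCGTCAccccagcagc
PGD, chr1:10398853-10398881 (plus strand): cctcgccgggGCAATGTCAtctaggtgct
GSTA4, chr6:52995275-52995303 (minus strand): ccgggaccgcTGACCTGGCgctttgtgcg
PIR, chrX:15493289-15493317 (minus strand): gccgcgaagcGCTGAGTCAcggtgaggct
KEAP1, chr19:10502784-10502812 (minus strand): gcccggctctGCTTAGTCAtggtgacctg
KEAP1, chr19:10502807-10502835 (minus strand): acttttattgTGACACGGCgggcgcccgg
Genes with a match did not move one way. In H1047R, CBR1, EPHX1 and GSTA4 rose, GCLM, GSTP1, KEAP1, ME1, PGD, PIR and TXNRD1 fell, and GPX2 was not called. Members with windows but no match also went both ways. Among them, ABCC2 and GCLC rose in both knock-in lines, and FTL and TKT fell in both. A match of letters is a description and does not show that a factor binds there.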

How the data were processed

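RNA from MCF-10A cells was depleted of ribosomal RNA and sequenced as paired 150 bp reads, per the labels' protocols. The deposited values are raw counts per gene in 2 tables, 1 with the E545K and WT libraries and 1 with the H1047R libraries, made with featureCounts 2.0.0 on exons of GENCODE 32 (hg38), per the file headers. Reads were counted without strand, for every gene they overlapped and mate by mate, per the file headers, so overlapping and antisense genes share reads. The tools cutadapt, Trim Galore 0.4.0, STAR, SAMtools 1.5 and FastQC are named in the submitters' processing notes.

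From these counts, edgeR 4.0.16 (R 4.3.3) was used with its default low-count filter, TMM scaling and a quasi-likelihood model with genotype as its only term, fitted to the 9 libraries together. It was first run on simulated counts with the same spread in every genotype, so that run did not cover the unequal spread given below. Of 60609 identifiers, 60295 were matched to GENCODE 44 names, and SOD2 of the pathway lists was not matched. Standard errors are the log2 fold change divided by the square root of the F statistic. The biological coefficient of variation was 0.118 over all libraries, 0.0285 within E545K, 0.219 within H1047R and 0.0328 within WT. The shared estimate is therefore wide for E545K against WT and narrow for H1047R. TPM used the deposited exon length. The alternatives were DESeq2 1.42.0, other scalings and filters, models of 2 genotypes, a replicate block, leaving out each library and, added after seeing the data, protein-coding genes only.

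The members and lists were chosen with earlier results of these data known. Values in every library are given for NFE2L2, KEAP1, members changed at least 2-fold in any of the 3 comparisons and the highest per length of each role. GCLM was added after its values were seen. From each other list, up to 3 genes with the largest called changes per comparison are named, and 1 or more that went the other way. A gene that this rule names is not reported here.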

Additional observations from a re-analysis of the deposited data

Results flagged for a closer look

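The knock-in lines differed from each other by at least 2-fold, in the same edgeR test, in 9 members, whose change against WT therefore differed between the lines. Higher in H1047R than in E545K, on the log2 scale, were AKR1B10 by 1.68 ± 0.081 and ABCC2 by 1.31 ± 0.057. The H1047R minus E545K differences of the 7 that were lower in H1047R were -2.29 ± 0.067 for PIR, -1.48 ± 0.10 for CBR3 and -1.32 ± 0.083 for AKR1C2. They were -1.24 ± 0.077 for ABCC3, -1.20 ± 0.054 for TKT, -1.19 ± 0.079 for NQO1 and -1.03 ± 0.069 for ME1. ABCC3 rose in both lines against WT and more in E545K, and ABCC2 rose in both and more in H1047R. The H1047R libraries come from a separate table and hold fewer counts in protein-coding genes, and table and genotype cannot be told apart here. Single libraries were ranked within their group and left out in turn, with H1047R replicate 3 lowest for most members. No rule for calling a library an outlier was applied.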

How the results depend on the processing

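Member calls held under every alternative run for 21 of 25 members in E545K against WT, 31 of 34 in H1047R against WT and 28 of 32 in H1047R against E545K. Lost under some were CBR1, GPX2, KEAP1 and NFE2L2 in the first, CAT, CBR1 and KEAP1 in the second, and CAT, GPX2, GPX4 and TXNRD1 in the third. Gained under some were ME1, NQO1, PGD, PIR and SRXN1 (higher) and PRDX1 (lower) in the first, AKR1C3 and OSGIN1 (higher) in the second, and ABCC1, CBR1, EPHX1, GSTP1, KEAP1 and NFE2L2 in the third. DESeq2 gave the same 3 pairs of member counts, 7 and 18, 8 and 26, and 9 and 23. With library totals as the only scaling, the median of all genes moved to 0.096 in E545K against WT and to -0.12 in H1047R against E545K, the E545K calls split into 7021 genes higher and 3606 lower, 12 members were called higher in E545K, and CBR1 was lower in H1047R than in E545K (log2 -0.14, edgeR adjusted p = 5.42e-03). In a model of E545K and WT alone, 12 members were called higher too, and the share of all genes called in that model is not set beside them. Under the stricter filter (10 CPM in at least 3 libraries), with fewer genes tested, 8366 genes were called in H1047R against WT (4233 higher and 4133 lower) and 8204 in H1047R against E545K (4099 and 4105). Leaving out 1 library at a time gave 7979 to 11251 genes called in E545K against WT (3773 to 5502 higher, 4192 to 5749 lower), 13077 to 15791 in H1047R against WT (6377 to 7752 and 6700 to 8039) and 12452 to 15295 in H1047R against E545K (6037 to 7420 and 6415 to 7875). The members called then numbered 6 to 10 higher and 16 to 19 lower, 7 to 10 and 24 to 26, and 7 to 10 and 22 to 25. Same-numbered replicates did not deviate together (r of -0.0707 to 0.087), so the numbers were not taken as pairs. With a replicate block, CBR1 in E545K (edgeR adjusted p = 0.0513) and KEAP1 in H1047R (0.0673) lost their calls against WT, leaving 6 and 18, 8 and 25, and 9 and 23 members called. Across the 15716 protein-coding genes tested, log2 fold changes had a Spearman correlation with GC content of -0.188 in E545K against WT and -0.145 in H1047R against WT, a description over genes that share libraries. The causes of these shifts were not tested.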
